A study of Mus musculus with 27 samples.

Results

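The nucleoplasm-to-cytoplasm ratio of polyadenylated RNA in mouse cortical neurons was set against the same ratio in neural progenitors. For each gene, the log2 ratio of nucleoplasm to cytoplasm in progenitors was subtracted from the log2 ratio in neurons. The difference is called the shift here. A positive shift means that the ratio was higher in neurons than in progenitors, toward the nucleoplasm, and a negative shift that it was lower, toward the cytoplasm. The comparison takes the nucleoplasm and cytoplasm libraries of these cell types, 12 of the 27 libraries of the series, with 3 in each of 4 groups. The series follows RNA between the compartments of the cell along neuronal differentiation, and its remaining libraries hold chromatin-associated RNA and RNA of embryonic stem cells (mESC, the E14 line kept with LIF).

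The progenitors (mNPC) are a line that the submitters established in their laboratory. They were grown in DMEM/F12 with B27 lacking vitamin A, and received EGF and FGF daily at 10 ng/ml. The neurons (mCtx) were a primary culture from cortex, kept for 5 days on poly-L-lysine. The labels name no strain, genotype, transgene or drug for any group, and all mNPC libraries come from a single line. Each fraction gave RNA of more than 200 nt, which was selected with oligo-dT beads and read as stranded pairs of 100 bp. The samples are labelled as biological replicates, with no record of separate cultures or animals, so the p-values measure the spread between these samples. All levels are CPM, a gene's count relative to the library size as scaled by the TMM method. They are relative to the RNA of a fraction and give no amount per cell, so fewer cells of a type and less RNA per cell cannot be told apart.

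Polyadenylated mRNAs are spliced and completed on chromatin, released into the nucleoplasm and exported through the nuclear pores. In the cytoplasm, mRNAs of cytosolic and nuclear proteins are translated mostly on free ribosomes. Those of secreted, lysosomal and plasma membrane proteins are translated at the endoplasmic reticulum (ER), to which a hydrophobic stretch near the start of the protein directs the ribosome. The ER membrane is continuous with the outer nuclear membrane. The mRNAs of the mitochondrial genome are made and translated inside mitochondria.

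Library totals of the 12 libraries ran from 10622897 to 24537526 counts. The summed markers matched the labelled cell types. All 30 cortical neuron markers had more than 3 counts in mCtx nucleoplasm, where they summed to 16644 to 18389 CPM per library, against 1079 to 1232 CPM in mNPC nucleoplasm. The 19 neural progenitor markers summed to 20780 to 21388 CPM in mNPC nucleoplasm and to 2872 to 3030 CPM in mCtx nucleoplasm. In the cytoplasm the difference was smaller, with 9263 to 9684 CPM in mNPC and 3444 to 4091 CPM in mCtx. Among these markers Cd24a went the other way, with 128 CPM in mNPC cytoplasm and 1474 CPM in mCtx cytoplasm. The mitochondrial genome took 10.0% ± 1.52 of the counts in mNPC nucleoplasm and 0.385% ± 0.104 in mNPC cytoplasm. In mCtx it took 6.58% ± 0.153 of nucleoplasm counts and 2.51% ± 0.112 of cytoplasm counts (SD, n = 3). The fraction labelled nucleoplasm thus held RNA of another organelle in both cell types.

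Of 18226 genes tested, 1150 (6.31%) rose, having an adjusted p under 0.05 and a shift of at least 1 on the log2 scale, and 2421 (13.3%) fell. The test was edgeR's quasi-likelihood F-test with Benjamini-Hochberg adjustment over all genes. The median shift of all genes was 0.04. Genes that fell had a median log2 ratio of 1.78 in mNPC and -0.08 in mCtx. Genes that rose had a median ratio of -0.38 in mNPC and 0.95 in mCtx. The balance of the directions moved with the scaling and the filter. With library totals alone 1875 genes rose and 2018 fell, with a filter of at least 1 CPM in 3 libraries 613 rose and 2839 fell, and in the deposited TPM table, on log2(TPM + 1), 2405 rose and 1408 fell. The median shift of all genes moved with these settings to 0.22, -0.10 and 0.28, so shifts are best read against it. Leaving out libraries also moved the number of rises. Without any 1 of the 3 mNPC nucleoplasm libraries, the 3 mCtx nucleoplasm libraries or the second mCtx cytoplasm library, 586 to 672 genes rose, and without the mESC libraries numbered 1, 687 rose. In these settings the median shift of all genes also moved, to between -0.11 and -0.06.

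The log2 ratios within each cell type were tested in the same fit. In mNPC 2992 genes (16.4%) were higher in the nucleoplasm and 1561 (8.56%) in the cytoplasm. In mCtx the counts were 2134 (11.7%) and 1744 (9.57%). Of the 2421 genes that fell, 1484 (61.3%) were called nucleoplasm-higher in mNPC and called in neither direction in mCtx. A further 322 were nucleoplasm-higher in both cell types, 239 were cytoplasm-higher in mCtx alone, and 59 crossed from nucleoplasm-higher in mNPC to cytoplasm-higher in mCtx. Of the 1150 genes that rose, 503 (43.7%) were nucleoplasm-higher in mCtx alone 128 (11.1%) were cytoplasm-higher in mNPC alone, and 495 (43.0%) were called in neither cell type. Crossing in this direction was called for 3 genes.

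The shift divided the genes by the kind of protein they encode. Coding genes were put into classes from their longest annotated protein by a hydropathy score that uses no expression value. The classes themselves were chosen with earlier results of these data known. The first class, N-terminal hydrophobic, has a window of 12 residues within the first 40 with a mean Kyte-Doolittle hydropathy of at least 2.0, as most signal sequences and many signal anchors do. The second, membrane-like, has only a later window of 19 residues with a mean of at least 1.6, and the third has neither. The classes are coarse: the cytosolic proteins Eef2, Psmd2 and Cct8 fall in the membrane-like class, and the secreted protein Thbs1 in the third.

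Among 2894 tested genes of the N-terminal hydrophobic class, 1314 (45.4%) fell and 24 (0.829%) rose, with a median shift of -1.28. The membrane-like class of 3182 genes had 665 that fell, 206 that rose and a median of -0.21. Of the 9457 genes with neither feature, 190 (2.01%) fell, 843 (8.91%) rose and the median was 0.28. The first class made up 54.3% of the genes that fell, 2.09% of those that rose and 15.9% of all genes tested. Its median log2 ratio was 1.17 in mNPC and 0.00 in mCtx. In the third class these medians were -0.41 and -0.07, so the medians of the classes were far apart in progenitors and close together in neurons. With at least 10 CPM in both cell types, the medians were -1.42 over 1247 genes of the first class and 0.33 over 6017 of the third.

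**Figure D1:**
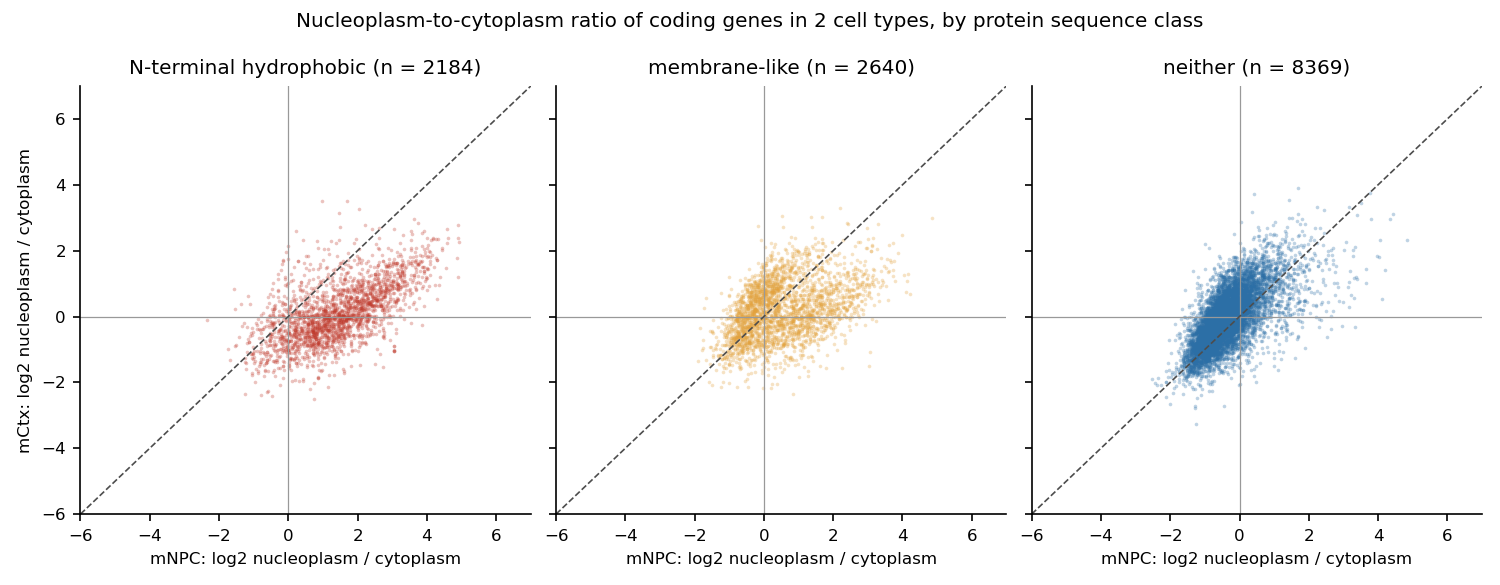
Log2 ratio of nucleoplasm to cytoplasm in mNPC (x axis) and mCtx (y axis) for coding genes with more than 3 counts in each of the 4 groups, by protein sequence class; each point is a gene and the dashed line marks equal ratios. The 2184 genes of the N-terminal hydrophobic class lie mostly below the dashed line (median shift -1.39). Of the 8369 genes with neither feature, 5920 lie above it and 2449 below, closer to the line (median shift 0.30).

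The coding starts of 8 genes illustrate the classes. They were picked from the genes named below for their shift, 4 that fell and 4 that rose. Each sequence is the first 120 bases of the coding sequence, from GENCODE M21 on GRCm38 (mm10), with the 12 codons of the most hydrophobic window among the first 40 codons in capitals. The genes that fell are Pcdh11x (start codon at chromosome X, base 120364830, plus strand), Tril (chromosome 6, 53820235, minus strand), Dll3 (chromosome 7, 28301746, minus strand) and Alg10b (chromosome 15, 90224438, plus strand).
Pcdh11x: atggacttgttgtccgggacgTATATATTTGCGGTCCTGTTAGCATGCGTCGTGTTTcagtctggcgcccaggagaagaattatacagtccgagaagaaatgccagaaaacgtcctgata
Tril: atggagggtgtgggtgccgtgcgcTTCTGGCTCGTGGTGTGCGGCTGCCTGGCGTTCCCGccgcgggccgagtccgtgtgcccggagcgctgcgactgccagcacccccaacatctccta
Dll3: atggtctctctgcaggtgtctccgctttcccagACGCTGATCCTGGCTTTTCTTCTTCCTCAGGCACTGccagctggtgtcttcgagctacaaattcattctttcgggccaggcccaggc
Alg10b: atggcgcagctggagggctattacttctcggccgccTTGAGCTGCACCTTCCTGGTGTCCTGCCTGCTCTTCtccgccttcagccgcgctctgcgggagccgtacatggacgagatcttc
The mean hydropathy of the capitals is 2.92 for Pcdh11x, 2.13 for Tril, 2.01 for Dll3 and 2.31 for Alg10b. The genes that rose are Hsp90ab1 (chromosome 17, 45571911, minus strand), Foxj1 (chromosome 11, 116334539, minus strand), Hsp90aa1 (chromosome 12, 110695680, minus strand) and Ipo7 (chromosome 7, 110018425, plus strand).
Hsp90ab1: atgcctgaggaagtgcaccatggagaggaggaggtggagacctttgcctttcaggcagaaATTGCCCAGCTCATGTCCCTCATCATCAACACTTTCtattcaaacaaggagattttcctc
Foxj1: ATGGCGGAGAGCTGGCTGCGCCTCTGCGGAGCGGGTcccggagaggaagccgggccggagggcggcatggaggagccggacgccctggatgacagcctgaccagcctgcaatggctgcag
Hsp90aa1: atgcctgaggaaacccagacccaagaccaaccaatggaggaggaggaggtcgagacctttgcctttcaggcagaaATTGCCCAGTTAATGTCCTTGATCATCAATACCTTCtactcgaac
Ipo7: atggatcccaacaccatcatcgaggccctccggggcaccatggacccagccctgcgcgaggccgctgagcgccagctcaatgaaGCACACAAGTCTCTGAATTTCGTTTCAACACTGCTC
Their capitals have a mean of 1.59 in Hsp90ab1, 0.42 in Foxj1, 1.59 in Hsp90aa1 and 0.61 in Ipo7, all under the limit of 2.0.

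RNAs of the mitochondrial genome were among the named genes with the largest falls. All 11 tested mitochondrially encoded mRNAs, of 13 in the list, fell, with a median shift of -3.78. Of these 4 had 3 counts or fewer in a group, and with them at the bound that 3 counts give the median was -3.49. They were richer in the nucleoplasm than in the cytoplasm in both cell types, and far less so in neurons: the median log2 ratio was 5.26 in mNPC and 1.96 in mCtx. mt-Cytb, the cytochrome b of complex III (chromosome M, 14145 to 15288), was at 28735, 24700 and 30482 CPM in mNPC nucleoplasm and at 626, 590 and 975 CPM in mNPC cytoplasm. In mCtx it was at 17870, 16923 and 19078 CPM in the nucleoplasm and at 6621, 6250 and 6463 CPM in the cytoplasm. The nucleoplasm was above the cytoplasm without overlap in both cell types, and the libraries that differed most between the cell types were those of the cytoplasm. The shift of mt-Cytb was -3.78 ± 0.32 (SE, adjusted p = 2.1e-09), and the test of mCtx against mNPC gave 3.14 ± 0.24 in the cytoplasm and -0.64 ± 0.22 in the nucleoplasm. mt-Co1, a subunit of complex IV, shifted by -3.70 ± 0.32, mt-Nd1 by -3.55 ± 0.29 and mt-Nd4 by -3.23 ± 0.33, the last 2 being complex I subunits. mt-Nd6 had the lowest shift of the named genes at -4.92 ± 0.46. It lies on the strand opposite to mt-Nd5, which overlaps it in the annotation, and the strand setting of the counting is not stated.

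**Figure D2:**
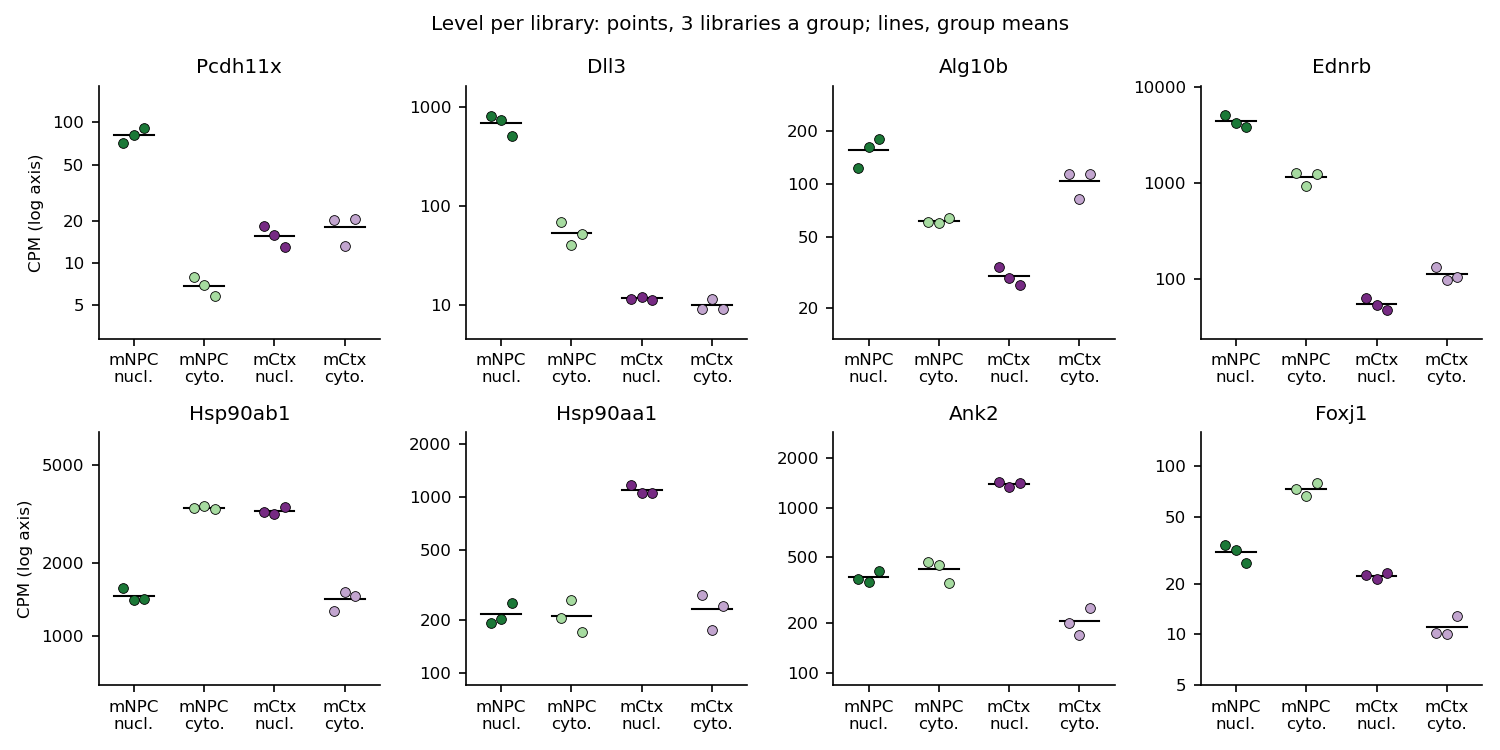
CPM of 8 genes in each library on log axes; points are the 3 libraries of a group and lines are group means. In Pcdh11x, Dll3, Alg10b and Ednrb the mNPC nucleoplasm stands above the mNPC cytoplasm and the mCtx fractions lie together or reversed; in Hsp90ab1, Hsp90aa1, Ank2 and Foxj1 the mCtx nucleoplasm stands above the mCtx cytoplasm.

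Apart from the mitochondrial genes, the named genes with the largest falls encode cell surface and secreted proteins. Pcdh11x, an adhesion molecule of the cadherin family (chromosome X, 120290259 to 120910619, where the predicted gene Gm14927 overlaps it), was at 71.7, 81.0 and 90.9 CPM in mNPC nucleoplasm and at 7.96, 6.99 and 5.81 CPM in mNPC cytoplasm. Neurons had 18.2, 15.8 and 13.1 CPM in the nucleoplasm and 20.3, 13.2 and 20.7 CPM in the cytoplasm. The mNPC fractions were far apart and the mCtx fractions overlapped. Its shift was -3.74 ± 0.26 (adjusted p = 3.1e-10). Dll3, a ligand-like inhibitor of Notch signalling (chromosome 7, 28293553 to 28302238), was at 820, 739 and 508 CPM in mNPC nucleoplasm and at 68.3, 40.5 and 51.6 CPM in mNPC cytoplasm. In mCtx it was at 9.15, 11.5 and 9.12 CPM in the cytoplasm and at a mean of 11.6 CPM in the nucleoplasm, so the fractions overlapped there. Its shift was -3.46 ± 0.32 (adjusted p = 9.0e-09). Tril, a membrane partner of Toll-like receptors, shifted by -3.56 ± 0.38. Thbs1, the secreted matrix protein thrombospondin 1, shifted by -3.58 ± 0.46. Its mNPC cytoplasm level was only 0.864 ± 0.328 CPM, and on log2(TPM + 1) its shift was -1.10.

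The clustered protocadherins, adhesion proteins whose combinations mark single neurons, fell as a block. All 23 tested genes of the clusters on chromosome 18 fell, with a median shift of -3.03. Nearly all of them belong to the beta cluster. The alpha cluster was represented by Pcdha11 alone and the gamma cluster by Pcdhgc4 alone. Their median ratio was 3.76 in mNPC and 0.81 in mCtx. Pcdhb18 shifted by -3.41 ± 0.36, Pcdhb5 by -3.35 ± 0.34 and Pcdhb11 by -3.25 ± 0.32. Pcdhb18 stood at 69.9 ± 7.18 CPM in mNPC nucleoplasm against 6.90 ± 2.07 CPM in mNPC cytoplasm. The members of these clusters are similar in sequence and lie within one another's transcription units, so reads may be shared between them. For Pcdha11 and Pcdhgc4 the TPM table gave the opposite sign, so the fall is best read as one of the beta cluster.

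Most members of other lists of surface and secreted proteins also fell. Of 52 synaptic and neural adhesion genes 47 fell and none rose, with a median of -2.01, among them the amyloid precursor relative Aplp2 at -1.89 ± 0.17 (adjusted p = 4.9e-09). App itself was called at -1.30 ± 0.50 (adjusted p = 0.0472), a call that was lost in 17 of 24 other settings. Of 58 axon guidance genes 46 fell and none rose, with a median of -1.95. Sema5a, a semaphorin, shifted by -3.11 ± 0.28, and the plexin receptors Plxnb2 and Plxnb1 by -2.05 ± 0.22 and -1.77 ± 0.30. Of 50 secreted and matrix proteins 38 fell and none rose, with a median of -1.87. Tnr and Ncan, matrix proteins of the brain, shifted by -3.20 ± 0.34 and -2.51 ± 0.32.

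The 28 lysosomal genes all fell, with a median of -1.99. Ctsd, the protease cathepsin D, was at 2196, 1985 and 1326 CPM in mNPC nucleoplasm and at 380, 310 and 411 CPM in mNPC cytoplasm. The mCtx libraries had 366, 351 and 390 CPM in the nucleoplasm and 275, 333 and 327 CPM in the cytoplasm. The distance between the fractions was wide in progenitors and narrow in neurons. Its shift was -2.08 ± 0.32 (adjusted p = 1.3e-05). Psap, the precursor of the saposins, shifted by -1.05 ± 0.30. Of 41 ER chaperones and translocation genes 29 fell and none rose, with a median of -1.38. Dnajb9, a co-chaperone of the ER lumen, shifted by -2.61 ± 0.23 and Calr, the lectin chaperone calreticulin, by -1.15 ± 0.29. Hsp90b1, the HSP90 of the ER, was not called at -0.92 ± 0.28.

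Neuronal receptors and channels were included. Of 36 glutamate and GABA receptor genes 19 fell and none rose, with a median of -1.30 and of -1.44 with low groups at their bound. The GABA-A subunit Gabra2 shifted by -2.96 ± 0.28, with 53.2 and 53.9 CPM in the nucleoplasm and cytoplasm of mCtx and 26.7 and 3.45 CPM in those of mNPC. The AMPA receptor subunit Gria2 shifted by -1.44 ± 0.22. Of 39 voltage-gated ion channels 15 fell and none rose, with a median of -1.07. On log2(TPM + 1) 1 of them fell and 8 rose, and the median turned to 0.03. Of 79 plasma membrane solute carriers (Slc1 to Slc9) 40 fell and none rose, with a median of -1.46. The bicarbonate transporter Slc4a4 shifted by -3.18 ± 0.27 and the glial glutamate transporter Slc1a3 by -2.31 ± 0.26.

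Within signalling pathways the genes that fell encode receptors, ligands and membrane proteases. In the list of Notch, EGF and FGF signalling, 16 of 40 genes fell and none rose, with a median of -0.28 that turned to 0.10 on log2(TPM + 1). Those that fell were 10 of the 12 members with an N-terminal hydrophobic stretch and 6 of the 11 membrane-like members. The receptor Notch1 shifted by -1.78 ± 0.24 and the receptor Fgfr3 by -1.87 ± 0.29. Of the 17 members with neither feature, which include the nuclear factors of the Hes, Maml and Etv families, none was called in either direction, and their median was 0.20. Fgfr2 was not called at 0.29 ± 0.16. Its counted region overlaps other genes, among them Ate1 and Nsmce4a on the same strand, and the TPM table gave -1.80. In the list of nuclear pore and transport receptors, 12 of 46 genes rose and 2 fell, with a median of 0.70. Without mNPC nucleoplasm replicate 1, 7 rose. The 2 that fell are Nup210 at -2.17 ± 0.20 and Pom121 at -2.11 ± 0.20, nucleoporins that span the nuclear membrane. The import receptor Ipo5 rose by 1.88 ± 0.22.

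Sterol synthesis and the synaptic vesicle were divided. Of 26 sterol synthesis genes 4 rose and 5 fell, with a median of -0.33 that turned to 0.19 on log2(TPM + 1). Without mNPC nucleoplasm replicate 1, 2 rose and 10 fell. Without mNPC nucleoplasm replicate 3, mNPC cytoplasm replicate 3, mCtx cytoplasm replicate 2 or any mCtx nucleoplasm library, 8 to 10 fell. The cytosolic enzymes Mvd and Hmgcs1 rose by 2.00 ± 0.41 and 1.98 ± 0.46, and the ER desaturase Scd2 fell, at -2.03 ± 0.41. Of 43 synaptic vesicle and SNARE genes 7 rose and 8 fell, with a median of 0.04 that turned to -0.06 with RLE size factors, and 3 to 4 rose without mNPC nucleoplasm replicate 1, mCtx cytoplasm replicate 2 or any mCtx nucleoplasm library. Those that rose include Nsf, Rims1, Rims2, Unc13a, Unc13b and Syn1, soluble or peripheral proteins of the synaptic vesicle cycle, which are in the class with neither feature. Nsf, the ATPase that takes SNARE complexes apart, rose by 1.91 ± 0.20 (adjusted p = 4.2e-08). Of those that fell, Syt1, Syt11, Sv2a, Sv2c and Vamp1 span the vesicle membrane, and Snap25, Rab3c and Napb do not. Syt1, the calcium sensor of release, shifted by -1.82 ± 0.23.

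**Figure D3:**
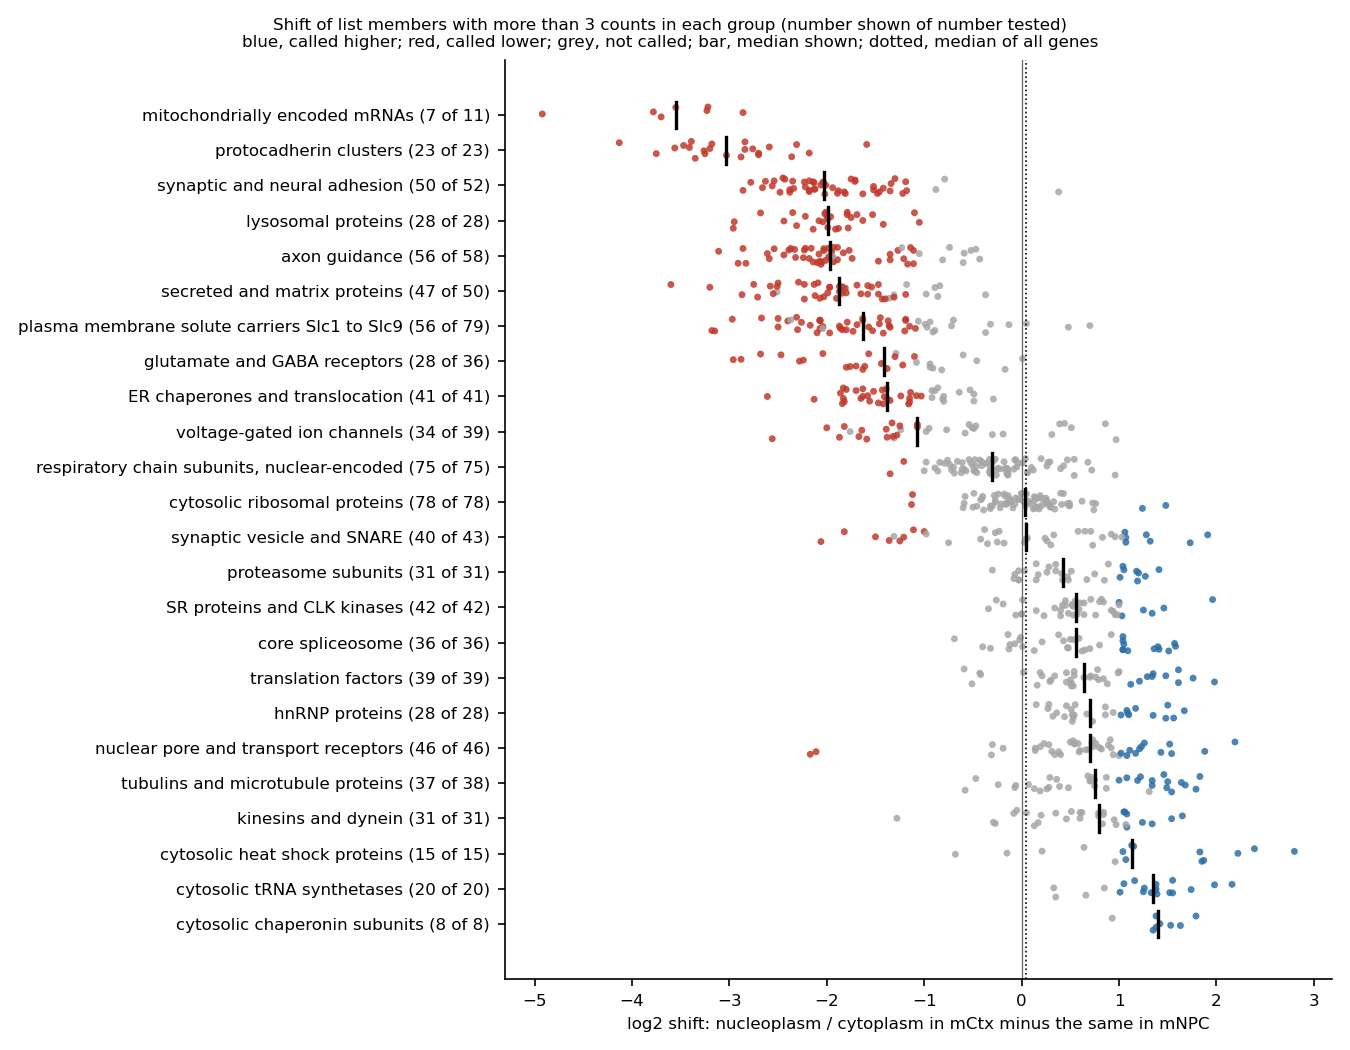
Shift of the members of 24 gene lists (x axis, log2) that had more than 3 counts in each group; each point is a gene, the bar is the median of the genes shown, and the dotted line is the median of all genes, 0.04. Lists of mitochondrially encoded, surface, secreted, lysosomal and ER proteins lie on the left. Most lists of cytosolic and nuclear proteins lie on the right, with the 2 membrane-spanning nucleoporins apart from the rest of their list. The cytosolic ribosomal proteins (median 0.03) lie at the dotted line and the nuclear-encoded respiratory chain subunits (median -0.30) to its left.

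The named genes with the largest rises encode cytosolic, cytoskeletal and nuclear proteins. Hsp90ab1, the constitutive cytosolic HSP90 chaperone (chromosome 17, 45567775 to 45573271), was at 1567, 1410 and 1414 CPM in mNPC nucleoplasm and at 3334, 3394 and 3322 CPM in mNPC cytoplasm. In mCtx it was at 3225, 3141 and 3371 CPM in the nucleoplasm and at 1265, 1512 and 1464 CPM in the cytoplasm. The order of the fractions was thus reversed between the cell types with no overlap in either. Its shift was 2.39 ± 0.24 (adjusted p = 2.4e-08). Its paralogue Hsp90aa1, the inducible form, was at 193, 202 and 250 CPM in mNPC nucleoplasm and at 205, 258 and 170 CPM in mNPC cytoplasm. Neurons had 1168, 1054 and 1058 CPM in the nucleoplasm and 278, 174 and 241 CPM in the cytoplasm. Only the neuronal nucleoplasm stood apart. The shift of Hsp90aa1 was 2.22 ± 0.28 (adjusted p = 8.9e-07).

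Ank2, the adaptor ankyrin-B that ties membrane proteins to the spectrin skeleton (chromosome 3, 126921607 to 126998452), had the largest rise of the named genes. It was at 368, 357 and 412 CPM in mNPC nucleoplasm and at 471, 451 and 350 CPM in mNPC cytoplasm, which overlapped. The libraries of mCtx stood at 1423, 1336 and 1406 CPM in the nucleoplasm and at 200, 169 and 247 CPM in the cytoplasm. Its shift was 2.92 ± 0.29 (adjusted p = 1.7e-08). The phosphofructokinases Pfkp and Pfkl, which catalyse a committed step of glycolysis, rose by 2.38 ± 0.24 and 2.00 ± 0.39. The nuclear import receptor Ipo7 rose by 2.19 ± 0.23. The remaining named genes were Lrrc45, a centrosomal protein, at 2.07 ± 0.34, and the kinase Map4k2, at 1.99 ± 0.30.

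Several of the named rises were in translation and protein folding. Eef2, the elongation factor that moves the ribosome along the mRNA, was at 2253, 1851 and 1521 CPM in mNPC nucleoplasm and at 6237, 5654 and 6651 CPM in mNPC cytoplasm. The mCtx libraries had 2698, 2769 and 3143 CPM in the nucleoplasm and 2017, 2642 and 2520 CPM in the cytoplasm. The wide distance of the progenitor fractions was nearly closed in neurons. Its shift was 1.98 ± 0.21 (adjusted p = 4.4e-08). Of 39 translation factors 10 rose and none fell, with a median of 0.64, and Eef1a1 rose by 1.61 ± 0.22. The cytosolic ribosomal proteins stayed near the median of all genes. Of 78 genes 2 rose and 2 fell, with a median of 0.03 that turned to -0.07 with RLE size factors, and their median ratio was -1.45 in mNPC and -1.40 in mCtx. Rpl3 rose by 1.48 ± 0.21, and Rps21 fell, at -1.13 ± 0.28.

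Cytosolic aminoacyl-tRNA synthetases, which charge tRNAs with amino acids, rose nearly throughout. Of 20 genes 16 rose and none fell, with a median of 1.35. With a library left out 12 to 16 rose. The calls of Iars and Wars were lost in 15 and 12 of 24 other settings. Eprs, the fused glutamyl and prolyl synthetase (chromosome 1, 185363095 to 185428355), was at 153, 156 and 178 CPM in mNPC nucleoplasm and at 140, 113 and 76.5 CPM in mNPC cytoplasm. Its neuronal levels were 433, 383 and 408 CPM in the nucleoplasm and 65.7, 51.4 and 69.1 CPM in the cytoplasm. Its shift was 2.16 ± 0.26 (adjusted p = 3.2e-07), and that of Aars was 1.98 ± 0.23. Of the 17 genes for the mitochondrial synthetases none rose and 4 fell, with a median of 0.27. The median was -0.02 without mCtx nucleoplasm replicate 3 and 0.77 on log2(TPM + 0.1), and up to 5 members rose in other settings. Those that fell were Yars2 at -1.52 ± 0.30, Iars2 at -1.27 ± 0.17, Mars2 at -1.18 ± 0.26 and Vars2 at -1.12 ± 0.25. Of the 8 subunits of the cytosolic chaperonin CCT, which folds actin and tubulin, 7 rose, with a median of 1.40. Of 15 cytosolic heat shock proteins 10 rose, with a median of 1.13, Hspa8 by 1.83 ± 0.34 among them. Without mNPC nucleoplasm replicate 2 or 3 or mCtx nucleoplasm replicate 1 or 3, 5 to 6 of them rose. These 4 lists were chosen after values had been seen. The other 41 lists were chosen with earlier results of these data known.

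**Figure D4:**
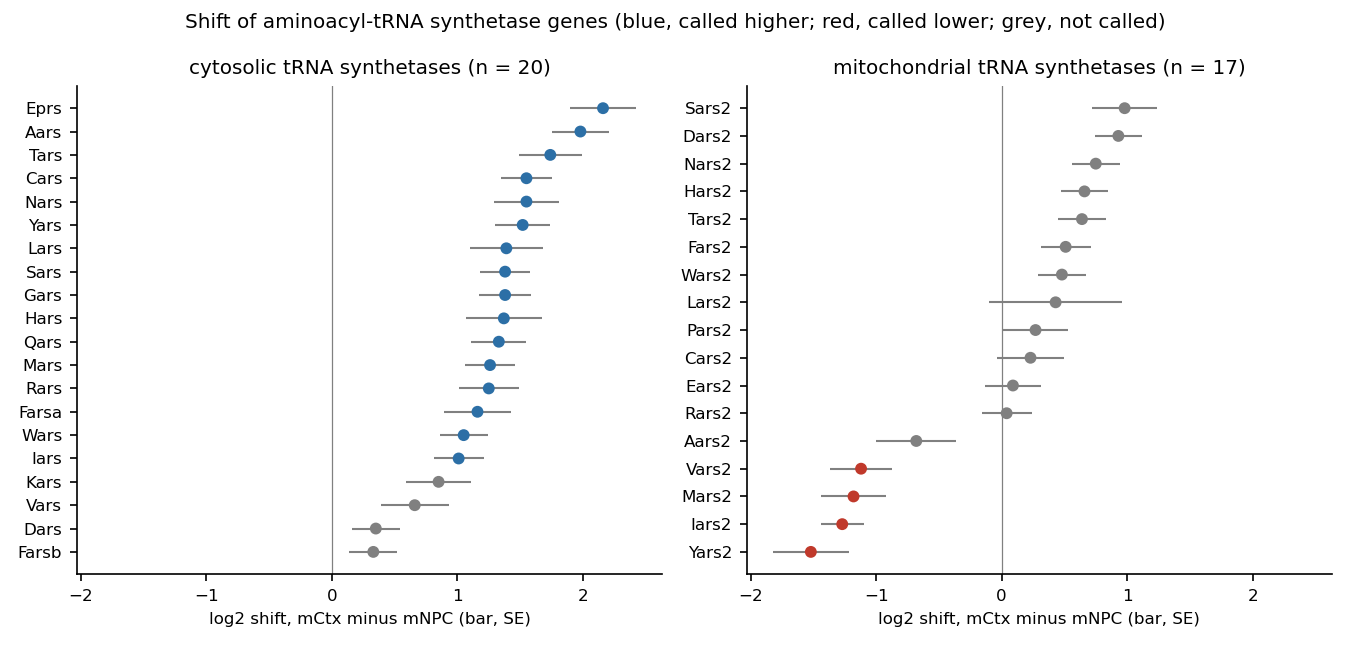
Shift (x axis, log2; bars are SE) of the genes for cytosolic (left) and mitochondrial (right) aminoacyl-tRNA synthetases. The cytosolic genes lie between 0.33 and 2.16 and the mitochondrial genes between -1.52 and 0.98.

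Genes of RNA processing and of the cytoskeleton also rose in part. Of 28 hnRNP genes, whose proteins coat nuclear pre-mRNA, 10 rose and none fell, with a median of 0.70. Hnrnpa1 rose by 1.50 ± 0.23 and Taf15 by 1.67 ± 0.20. Of 36 core spliceosome genes 12 rose and none fell, and of 42 SR proteins and CLK kinases 6 rose and none fell, each with a median of 0.56. The shares that rose were 35.7%, 33.3% and 14.3% in these lists, beside 6.31% of all genes. Among genes with neither feature and at least 10 CPM in both cell types, 11.3% rose, with a median of 0.33, so the last share is near that level. Clk1, a kinase of SR proteins, rose by 1.46 ± 0.29. Of 38 tubulin and microtubule genes 14 rose and none fell, with a median of 0.73, among them Tubb2a at 1.83 ± 0.17 and the dendritic protein Map2 at 1.50 ± 0.29. Tuba1a, the most abundant of them, was not called at 0.19 ± 0.41. Of 31 kinesin and dynein genes 8 rose and none fell, with a median of 0.79. Of 31 proteasome genes 8 rose and none fell, with a median of 0.42. These numbers moved when a library was left out. For the 7 libraries named next, the median shift of all genes was then between -0.11 and -0.06. Without any 1 of the 3 mNPC nucleoplasm libraries, the 3 mCtx nucleoplasm libraries or the second mCtx cytoplasm library, 5 to 8 hnRNP genes rose, 6 core spliceosome genes, 3 to 4 SR proteins and CLK kinases and 4 kinesin and dynein genes. Of the proteasome genes 1 rose without mNPC nucleoplasm replicate 3 and 3 to 5 without any of the others of these 7 libraries. Of the tubulin and microtubule genes 9 rose without mNPC nucleoplasm replicate 3. Without mNPC cytoplasm replicate 3, 10 SR proteins and CLK kinases rose.

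A number of lists held few calls. Of 54 histone modifiers and remodelers 4 rose and none fell, with a median of 0.48, a share near that of all genes, and 9 rose without mNPC cytoplasm replicate 3, 2 without mNPC cytoplasm replicate 1 and 1 without any 1 of the 7 libraries above. Of 75 nuclear-encoded respiratory chain subunits none rose and 2 fell, with a median of -0.30 that turned to 0.03 on log2(TPM + 1). With a library left out 2 to 12 of them fell, 12 without mNPC nucleoplasm replicate 3 and 4 to 7 without any other of these 7 libraries. Of 351 zinc finger genes 13 rose and 3 fell, with a median of 0.24. Without any 1 of the same 7 libraries 2 to 7 rose and the median was between 0.00 and 0.15, and on log2(TPM + 0.1) 54 rose. Of 77 mitochondrial ribosomal proteins Mrps27 rose and Mrps6 fell, and the list's median of -0.03 turned to 0.33 on log2(TPM + 1). Of 44 immediate early genes Per1 rose and 4 fell, Btg2, Atf3, Zfp36l1 and Ccn1. Of 40 proliferation genes Top2a and Cenpe rose and none fell, and of 29 neuronal splicing regulators Celf2 rose and none fell. The calls of Per1 and Celf2 were each lost in 14 of 24 other settings.

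A small set of genes crossed over between the cell types. By the naming rule these are Alg10b, Cd44, Ednrb and S1pr1 in the direction of the neuronal cytoplasm, and Hsp90ab1 and Foxj1 in the other. Alg10b, a glucosyltransferase of the ER membrane (chromosome 15, 90224311 to 90230554), was at 124, 162 and 180 CPM in mNPC nucleoplasm and at 61.5, 60.0 and 64.3 CPM in mNPC cytoplasm. Neurons had 34.2, 29.3 and 26.8 CPM in the nucleoplasm and 114, 82.7 and 115 CPM in the cytoplasm. No library of a fraction overlapped the other fraction of its cell type. Its shift was -3.12 ± 0.20 (adjusted p = 5.0e-11), from a ratio of 1.33 ± 0.14 to one of -1.79 ± 0.14. The hyaluronan receptor Cd44 shifted by -3.12 ± 0.37, the endothelin receptor Ednrb by -2.95 ± 0.31 and the sphingosine phosphate receptor S1pr1 by -2.92 ± 0.29. Ednrb differed widely in level, with 4358 ± 668 CPM in mNPC nucleoplasm and 54.9 ± 7.98 CPM in mCtx nucleoplasm. Foxj1, a transcription factor of ciliated cells, was at 30.8 ± 3.78 CPM in the nucleoplasm and 73.0 ± 6.64 CPM in the cytoplasm of mNPC. The mCtx libraries had 22.4, 21.4 and 23.2 CPM in the nucleoplasm and 10.2, 9.97 and 12.8 CPM in the cytoplasm, so the order was reversed, and the shift was 2.26 ± 0.24.

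Of the genes that the study itself followed, Gabbr1 fell. Gabbr1, a subunit of the GABA-B receptor (chromosome 17, 37045966 to 37075067), was at 493, 405 and 355 CPM in mNPC nucleoplasm and at 188, 146 and 171 CPM in mNPC cytoplasm. The libraries of mCtx stood at 598, 556 and 604 CPM in the nucleoplasm and at 604, 609 and 625 CPM in the cytoplasm, so that the fractions overlapped at their edge. Its shift was -1.38 ± 0.22 (adjusted p = 2.1e-05), and mCtx minus mNPC was 1.87 ± 0.16 in the cytoplasm and 0.49 ± 0.16 in the nucleoplasm. The splicing repressor Ptbp1, at 0.50 ± 0.26 (adjusted p = 0.160), and its neural paralogue Ptbp2, at 0.36 ± 0.25 (adjusted p = 0.309), were not called. Meg3, an imprinted lncRNA, was at 1666 ± 70.3 CPM in mCtx nucleoplasm and 450 ± 105 CPM in mCtx cytoplasm. In mNPC it had 0.210 ± 0.0943 and 0.0654 ± 0.0579 CPM, too little for a shift to be detectable (0.42 ± 1.91, adjusted p = 0.957).

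Of 1119 tested lncRNAs 130 (11.6%) fell and 20 (1.79%) rose, beside 13.3% and 6.31% of all genes. Their median was -0.52, but 356 of them had 3 counts or fewer in groups that leave the shift without a bound. Malat1, a lncRNA of nuclear speckles (chromosome 19, 5795690 to 5802671), was at 252, 255 and 364 CPM in mNPC nucleoplasm and at 62.8, 58.3 and 60.7 CPM in mNPC cytoplasm. The mCtx libraries had 378, 339 and 425 CPM in the nucleoplasm and 200, 150 and 179 CPM in the cytoplasm. The nucleoplasm was above the cytoplasm in both cell types, by less in neurons. The shift of Malat1 was -1.15 ± 0.29 (adjusted p = 0.00296). Neat1, the scaffold of paraspeckles, was near the threshold at -1.59 ± 0.59 (adjusted p = 0.0401), a call lost in 12 of 24 other settings. Ftx, a lncRNA of the X inactivation centre, rose by 1.10 ± 0.26, a call lost in 8 of 24 other settings. Of 12 listed nuclear lncRNAs tested these 3 were called. Of 9 small nucleolar RNA hosts only Snhg20 was called, falling, at -1.25.

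Which fraction carried the difference varied from gene to gene. Testing mCtx against mNPC within a fraction, 4487 genes (24.6%) were higher in mCtx nucleoplasm and 4030 (22.1%) lower, and in the cytoplasm 4448 (24.4%) were higher and 3645 lower. Of the genes that fell, 749 (30.9%) were lower in mCtx nucleoplasm and not called in the cytoplasm, and 540 (22.3%) were higher in mCtx cytoplasm and not called in the nucleoplasm. Another 485 were lower in both fractions and 373 (15.4%) higher in both. Of the genes that rose, 339 (29.5%) were higher in mCtx nucleoplasm alone 255 (22.2%) were lower in mCtx cytoplasm alone, and 346 (30.1%) were called in neither fraction. In shares of all counts, the N-terminal hydrophobic class without the mitochondrial genome took 27.2% ± 2.18 of mNPC nucleoplasm and 14.6% ± 0.168 of mCtx nucleoplasm. In the cytoplasm it took 9.76% ± 0.825 in mNPC and 12.9% ± 0.235 in mCtx (SD, n = 3). The libraries of the cell types did not overlap in either fraction.

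The embryonic stem cell libraries, whose levels are not part of the shift but which share its fit and scaling, had ratios nearer to those of the progenitors for these genes. Of the 2421 genes that fell, 1984 (81.9%) were nucleoplasm-higher in mESC, where 5021 of all tested genes (27.5%) were. Their median log2 ratio was 2.40 in mESC, beside 1.78 in mNPC and -0.08 in mCtx. The genes that rose had a median of -0.65 in mESC, beside -0.38 and 0.95, and 316 of them (27.5%) were cytoplasm-higher in mESC, where 1631 of all tested genes (8.95%) were. The N-terminal hydrophobic class had a median ratio of 2.00 in mESC. It took 14.4% ± 1.49 of the counts in mESC nucleoplasm and 3.35% ± 0.167 in mESC cytoplasm.

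**Figure D5:**
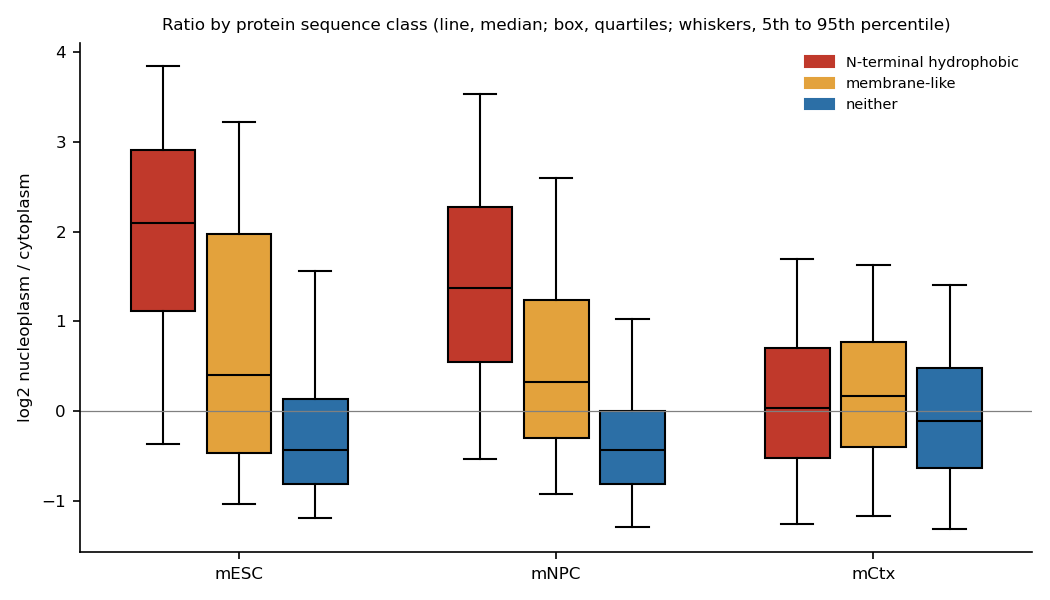
Log2 ratio of nucleoplasm to cytoplasm (y axis) in mESC, mNPC and mCtx by protein sequence class, for coding genes with more than 3 counts in each of the 4 groups of mNPC and mCtx; lines are medians, boxes quartiles and whiskers the 5th and 95th percentiles. The N-terminal hydrophobic class stands above the others in mESC and mNPC (medians 2.09 and 1.37) and not in mCtx (median 0.03).

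The gene length deposited with the counts equals the gene span, so introns lie inside the counted region. In genes that are nearly free of introns (exons covering at least 95% of the span, at least 10 CPM in both cell types) the first class had lower shifts than the third. Of 32 such genes of the N-terminal hydrophobic class 25 fell, with a median of -2.23, and of 181 with neither feature 7 fell and 6 rose, with a median of 0.06. The lowest shift among the 32, -4.92, is that of mt-Nd6, so they include RNA of the mitochondrial genome. How many of them are mitochondrial or clustered protocadherin genes was not counted. In the whole first class, 5 mitochondrially encoded mRNAs and 16 clustered protocadherins were tested, and all of these fell. The part of intronic reads in the difference of the classes was not tested. Over the whole classes, not only the nearly intronless genes, log2(TPM + 1) gave medians of -0.51 for the first and 0.51 for the third. The median of all genes was 0.28 there. Within the class with neither feature, genes with a longer total exonic length, over all annotated transcripts, had higher median shifts. With at least 10 CPM in both cell types and the genes cut into 5 equal groups by exonic length, the median shift of the shortest (383 to 2691 bases) was 0.12 and their median ratio in mCtx was -0.63. In the longest (7942 bases and more) these were 0.46 and 0.36.

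Markers of other cell types differed between the cultures. The 11 tested astrocyte markers summed to 3104 to 4534 CPM in mNPC nucleoplasm and 1737 to 2243 CPM in mNPC cytoplasm, against 423 to 469 and 410 to 440 CPM in mCtx. The 12 tested markers of the oligodendrocyte lineage summed to 3891 to 4602 and 3510 to 3801 CPM in mNPC, against 131 to 132 and 281 to 335 CPM in mCtx. The 13 tested microglia markers summed to 62.5 to 71.3 and 96.5 to 116 CPM in mCtx. In mNPC nucleoplasm 2 of them had more than 3 counts, and Aif1, C1qa, Csf1r and Trem2 were at 0. The 11 tested fibroblast and mural markers summed to 1579 to 1943 CPM in mNPC nucleoplasm and 66.5 to 101 CPM in mNPC cytoplasm, against 47.1 to 53.6 and 31.2 to 38.8 CPM in mCtx, with Col3a1 at 0 in mNPC. Most of that sum in mNPC nucleoplasm was Cspg4, at 1004, 1199 and 897 CPM, and Pdgfra, at 727, 740 and 679 CPM, which are also in the oligodendrocyte list. Of these lists, 1 progenitor marker (Vim) rose, a call lost in 16 of 24 other settings, and 7 fell, and 5 cortical neuron markers rose (Map2, Nefm, Gap43, Tubb3 and Syn1) and 2 fell (Syt1 and Snap25). Among astrocyte markers 1 rose and 5 fell, among inhibitory neuron markers 1 rose and 1 fell, and none rose of the oligodendrocyte, microglia, endothelial and fibroblast lists, of which 2, 1, 1 and 2 fell. Those of the oligodendrocyte and the fibroblast list are the same genes, Cspg4 and Pdgfra. No pluripotency marker was called. The part of these differences, and of the mitochondrial RNA in the nucleoplasm libraries, in the shift was not tested. Without the mitochondrial genes in the fit 1129 genes rose and 2400 fell.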

How the data were processed

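Polyadenylated RNA of chromatin, nucleoplasm and cytoplasm fractions of 3 cell types was sequenced in 27 libraries. The authors deposited read counts per gene and, in another table, TPM per gene. Per the submitters' processing notes STAR, featureCounts, kallisto 0.43.0 and mm10 were used. Of their order, options and strand setting nothing is recorded here. The gene length in the deposited count table equals the gene span in 100.0% of rows, so introns lie inside the counted region.

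From the counts, edgeR 4.0.16 in R 4.3.3 fitted all 27 libraries with a mean for each group, after filterByExpr and with TMM scaling. The quasi-likelihood F-test was adjusted by Benjamini-Hochberg over 18226 genes. A gene was called at an adjusted p under 0.05 and a log2 difference of at least 1. The SE is the log2 difference divided by the square root of F. The deposited chromatin columns, also whole-number counts, entered the fit through the shared spread. Deposited TPM values were tested on log2(TPM + 1) with limma 3.58.1, which understates changes of low genes. DESeq2 1.42.0 was an alternative. In simulated counts of 18058 genes, 96% and 98% of genes with a true log2 shift of 2 and -2 were called, 40% and 38% of those with 1 and -1, and 5 unchanged genes. The simulation changed 50 genes at each of these sizes, none of them low in any of the 4 groups. Its directions were balanced, so it did not test calls under the uneven shifts and scaling of the real libraries.

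Symbols matched 35533 of 37332 genes in GENCODE M21. Hydropathy classes came from its longest coding sequence per gene, translated with the standard code, and positions are those of the deposited table on mm10. Named genes are the 12 called genes with the largest shift in each direction with at least 10 CPM in a fraction of both cell types, more than 3 counts in each group and ratios that do not overlap under any pairing of libraries. To these come the 4 largest in each direction called on opposite sides in the cell types, the most abundant and most shifted members of each list, and the genes the study followed. The members, classes and 41 gene lists were chosen with earlier results of these data known. A further 4 lists were added after values were seen. Of 1853 list entries, 1787 were tested.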

Additional observations from a re-analysis of the deposited data

Results flagged for a closer look

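The nucleoplasm-to-cytoplasm ratio of the genes below differed between neurons and progenitors by a direct test of that difference, with values as log2 shifts. Toward the nucleoplasm in neurons these were Ank2 (2.92), Hsp90ab1 (2.39), Pfkp (2.38), Foxj1 (2.26), Hsp90aa1 (2.22), Ipo7 (2.19), Eprs (2.16), Lrrc45 (2.07), Mvd (2.00), Pfkl (2.00), Map4k2 (1.99) and Eef2 (1.98). Toward the cytoplasm, the mitochondrially encoded genes were mt-Nd6 (-4.92), mt-Cytb (-3.78), mt-Co1 (-3.70), mt-Nd1 (-3.55) and mt-Nd4 (-3.23). Surface and secreted proteins were Pcdh11x (-3.74), Thbs1 (-3.58), Tril (-3.56), Dll3 (-3.46), Pcdhb18 (-3.41), Pcdhb5 (-3.35), Pcdhb11 (-3.25), Cd44 (-3.12), Ednrb (-2.95), S1pr1 (-2.92) and Gabbr1 (-1.38), and the ER enzyme was Alg10b (-3.12). Apart from Gabbr1, the genes were named for the size of their shift, so these values describe them.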

How the results depend on the processing

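The directions of the 28 genes named for size or crossing, and their calls, were the same in every setting run for them, 24 for most and 23 for the mitochondrial genes. The naming rule took called genes of large shift whose ratios do not overlap under any pairing of libraries. Keeping the call with a library left out was therefore largely set by the choice. Among 140 named genes that were called, 94 kept the call in each setting and 43 lost it in some. The numbers of calls moved more. The shift had 2732 rises with no minimum fold, 1875 with library totals, 613 with at least 1 CPM in 3 libraries, 2405 on log2(TPM + 1), 3059 on log2(TPM + 0.1) and 2337 on log2(TPM + 1) with no filter. It had 687 without the mESC libraries numbered 1, a setting added after seeing the data, and 586 to 1346 with a replicate left out. It had 1408 and 1363 falls on log2(TPM + 1) with and without the filter, and 2202 to 2959 with a replicate left out. In mNPC, 1645 and 1618 genes were nucleoplasm-higher on log2(TPM + 1) with and without the filter, and 2798 to 3299 with a replicate left out. There 4957 were cytoplasm-higher with no minimum fold, 997 with RLE size factors, 3248 with library totals, 944 with at least 1 CPM, 973 with DESeq2, 3215, 3987 and 3191 in the TPM settings, 1014 without the mESC libraries numbered 1, and 835 to 1671 with a replicate left out. In mCtx, no minimum fold gave 4198 nucleoplasm-higher and 4325 cytoplasm-higher genes, and leaving out a replicate gave 1825 to 2193 and 1666 to 1899.

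In the TPM settings the sign turned for Fgfr2 (-1.80, -1.86 and -1.80), Mrps6 (0.41 in each), Pcdha11 (0.09), Pcdhgc4 (1.42, 1.43 and 1.42), Reln (1.30) and Zfp329 (0.06, 0.07 and 0.06). The cause was not tested. Of 45 list medians 12 changed sign in some setting. With the replicate block, 1284 genes rose and 2650 fell. The numbers were not taken as pairing the libraries, since the same-numbered nucleoplasm and cytoplasm libraries deviated with r of 0.13, -0.24 and -0.31 in mNPC and 0.42, 0.09 and 0.27 in mCtx. Genes with 3 counts or fewer in a group limit what can be read, and 14791 genes had more in each of the 4 groups.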

Other observations

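Nuclear-encoded genes for mitochondrial proteins were among the 190 genes with neither hydrophobic feature that fell. Those given here were chosen after their values were seen. Fastkd2, an RNA-binding protein of mitochondria, shifted by -2.33 ± 0.17. Noa1, a mitochondrial GTPase, shifted by -1.84 ± 0.23, and Polrmt, the mitochondrial RNA polymerase, by -1.74 ± 0.26. Akap1, which anchors kinase A at the outer mitochondrial membrane, shifted by -1.43 ± 0.19, and Polg, the mitochondrial DNA polymerase, by -1.10 ± 0.17. All 5 were called nucleoplasm-higher in mNPC. The list of 77 mitochondrial ribosomal proteins held 1 rise and 1 fall. The 5 genes were picked among those that fell, so their difference from that list was set by the choice.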
